A study of Mus musculus with 34 samples.

Results

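Asns, which encodes asparagine synthetase, was described together with 9 genes of the ATF4 stress response: Atf4, Atf5, Ddit3, Trib3, Ddit4, Sesn2, Nupr1, Chac1 and Fgf21. These 10 genes were picked by name, with earlier results of the same arrays known, out of 21979 genes tested, and were read at all 13 of their probes among 41174 probes. Because values of these arrays chose them, their levels and differences are given as descriptions with no p-value. The RNA came from mouse livers and liver tumors and was hybridised to 34 Agilent arrays with 2 colors. The tumors were labelled as expressing a c-Myc transgene (7 arrays, called Myc tumors here), TGFα and c-Myc transgenes together (3, TGFα/Myc tumors) or a TGFα transgene (3, TGFα tumors). For each of these 3 genotypes, livers were sampled after doxycycline had turned the transgene off for 4 weeks (3 arrays each) or 12 weeks (3 arrays each), and these are called off livers. The 3 control livers carried no transgene, and neither they nor the tumors had any weeks on doxycycline. The off samples were labelled as livers, so an off liver against a tumor compares tissue types as well as transgene states. The labels give neither the sex, age or strain of the sampled mice nor the promoter that drives the transgenes, and nothing shows that Myc tumors 3 and 4, with a common number in their file names, come from separate animals. All samples are labelled as biological replicates.

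Cells that lack amino acids, fold proteins poorly in the endoplasmic reticulum, lack heme or sense double-stranded RNA activate kinases that phosphorylate the translation factor eIF2α. General translation then falls, while the mRNA of ATF4 is translated more, so ATF4 protein can change with little change of its mRNA. ATF4 binds with C/EBP partners to composite elements in genes for amino acid synthesis, amino acid transport and tRNA charging, and in genes that limit the growth kinase mTORC1. In liver the response is known from amino acid restriction, where the enzyme gene Asns and the hormone gene Fgf21 are standard readouts.

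Each value below is log2 of the sample (Cy3) over a liver reference pooled from C57BL/6 mice of both sexes (Cy5), so 1 unit is a doubling, and values of different probes were not set against each other as levels. Sequences of 3 probes are shown, since the account turns on Asns, on the small range of Atf4, and on Fgf21, whose other probe (A_52_P235347) has a GC content of only 20%. They come from the array files and are 60 bases long, in lower case since no single stretch is singled out.
Asns probe A_51_P125745: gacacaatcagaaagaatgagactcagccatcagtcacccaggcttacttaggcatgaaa
Atf4 probe A_52_P139727: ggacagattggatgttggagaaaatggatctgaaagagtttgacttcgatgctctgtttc
Fgf21 probe A_51_P315925: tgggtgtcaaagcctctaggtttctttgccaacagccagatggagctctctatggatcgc

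The promoters of all 10 genes, 250 bases before to 50 after the start, were searched on both strands for TGATGNAA, the core of the C/EBP-ATF composite element. The element was found for 5 of 10 genes and in 1304 of 32851 promoters of the same length (3.97%). Those 5 promoters follow, with that of Ddit4, which holds no match, for contrast (RefSeq, build GRCm38.p6, each 300 bases read 5′ to 3′ along the gene, the match in capitals, written as its reverse complement where it lies on the other strand).
Asns promoter, chr6:7693160-7693459, minus strand, match 23 bases before the start: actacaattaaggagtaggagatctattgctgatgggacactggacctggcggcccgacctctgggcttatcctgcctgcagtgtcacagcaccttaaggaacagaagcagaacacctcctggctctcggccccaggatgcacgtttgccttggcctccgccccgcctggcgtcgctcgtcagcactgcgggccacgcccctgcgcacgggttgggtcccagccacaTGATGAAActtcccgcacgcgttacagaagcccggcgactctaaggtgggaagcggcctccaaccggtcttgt
Nupr1 promoter, chr7:126625421-126625720, minus strand, match 110 bases before the start: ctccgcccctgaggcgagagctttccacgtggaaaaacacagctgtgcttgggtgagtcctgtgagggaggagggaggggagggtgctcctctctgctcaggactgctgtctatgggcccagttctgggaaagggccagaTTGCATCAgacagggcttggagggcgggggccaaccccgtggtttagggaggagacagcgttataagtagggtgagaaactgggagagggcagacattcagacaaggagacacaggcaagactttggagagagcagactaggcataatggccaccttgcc
Fgf21 promoter, chr7:45615441-45615740, minus strand, match 139 bases before the start: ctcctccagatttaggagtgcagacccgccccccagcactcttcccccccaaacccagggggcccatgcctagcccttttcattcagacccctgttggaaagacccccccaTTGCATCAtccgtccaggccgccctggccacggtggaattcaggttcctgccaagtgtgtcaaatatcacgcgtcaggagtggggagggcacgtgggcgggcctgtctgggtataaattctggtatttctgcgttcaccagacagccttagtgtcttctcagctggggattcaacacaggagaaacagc
Chac1 promoter, chr2:119350992-119351291, plus strand, match 193 bases before the start: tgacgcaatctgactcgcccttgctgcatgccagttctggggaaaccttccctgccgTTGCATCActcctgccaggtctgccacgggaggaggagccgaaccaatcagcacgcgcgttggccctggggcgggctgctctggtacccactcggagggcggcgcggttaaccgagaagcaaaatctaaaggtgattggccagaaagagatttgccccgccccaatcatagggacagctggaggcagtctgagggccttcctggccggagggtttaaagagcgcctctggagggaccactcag
Trib3 promoter, chr2:152344011-152344310, minus strand, match 15 bases after the start: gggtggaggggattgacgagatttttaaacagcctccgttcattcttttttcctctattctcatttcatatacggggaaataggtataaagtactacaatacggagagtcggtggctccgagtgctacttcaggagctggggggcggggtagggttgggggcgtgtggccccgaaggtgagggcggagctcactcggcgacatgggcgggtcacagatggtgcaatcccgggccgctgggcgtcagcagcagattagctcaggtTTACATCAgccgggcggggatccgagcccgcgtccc
Ddit4 promoter, chr10:59951721-59952020, minus strand, no match: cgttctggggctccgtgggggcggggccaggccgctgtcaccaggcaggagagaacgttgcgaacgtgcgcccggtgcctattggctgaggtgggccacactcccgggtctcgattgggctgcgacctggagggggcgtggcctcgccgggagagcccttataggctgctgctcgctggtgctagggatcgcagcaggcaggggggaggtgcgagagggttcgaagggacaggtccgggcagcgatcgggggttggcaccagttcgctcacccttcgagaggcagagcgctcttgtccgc
A match describes these letters in this window and is neither a binding site nor a cause, and nothing follows from a window without one.

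Some arrays stood apart before any result was read. Slide 5 held 3 arrays, replicate 1 of the TGFα livers off for 4 weeks with tumors 2 and 3 of the same genotype. On it the hepatocyte markers had a median Cy5 signal percentile of 70.6 to 73.7, against 99.7 or more on the 31 arrays not set apart, and intestine markers stood at 99.9, against 53.5 to 78.2. Their sample channel (Cy3) stood apart too, with hepatocyte markers at 67.3 to 88.7 and intestine markers at 98.9 to 99.8. These 3 arrays were left out, so the fit used 31 arrays and the TGFα tumors had a single array. That array, labelled TGFα tumor 1, read 3.50 at Myc probe A_52_P278549, against -0.69 to 0.88 in controls. At Myc probe A_51_P102096 it read 1.41, where Myc tumors read -1.24 to 0.93 and controls -0.67 to 0.11. Whether its Myc signal came from a transgene was not tested. At A_52_P278549 Myc tumor 5 read 2.41, where the other Myc tumors read 3.15 to 5.16. There TGFα/Myc tumor 3 read 1.71, where the other 2 read 3.52 and 4.04. Myc tumor 5 and TGFα/Myc tumor 3 are kept in all means. All 8 hepatocyte markers were well above background on every tumor and control array of the fit. Their mean log2 ratio ran from -3.55 to -0.80 in Myc tumors and from -1.28 to 0.22 in TGFα/Myc tumors, against -0.18 to 0.22 in controls. Intestine markers (4 of 8 measured) ran from 0.39 to 2.80 and from 0.39 to 1.88 in these tumors, against -0.15 to -0.10 in controls, and neutrophil markers (6 of 7 measured) from 0.45 to 4.13 and from 0.07 to 1.17, against 0.63 to 0.81. Kupffer cell and macrophage markers (7 of 7) ran from -3.20 to -1.54 and from -2.66 to -0.64, against -1.38 to -0.51, and endothelial markers (7 of 7) from -2.72 to -0.93 and from -1.22 to 0.13, against -0.60 to -0.50, so both lay below all controls in every Myc tumor. The part of these shifts in the results was not tested, and in bulk RNA fewer cells of a type cannot be told apart from less RNA per cell. Between 43.7% and 71.9% of probes were well above background per array, the number of arrays limits the precision, and scanner 2 read only Myc tumors 2 to 7, whose scan days no other group shares.

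Asns makes asparagine from aspartate, taking the nitrogen from glutamine. In the Myc tumors its log2 ratio was 4.58, 5.21, 6.22, 5.49, 5.42, 5.73 and 5.94 for replicates 1 to 7, against -2.47, -1.62 and -1.67 in the controls. The TGFα/Myc tumors read 5.31, 3.55 and 3.38, and the array labelled TGFα tumor 1 read 4.99. Every tumor therefore lay far above every control.

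Most off livers lay near the controls, but those at -0.81, 0.32, 0.93 and 1.23 stood above every control. Off c-Myc, Asns read -1.75, -0.81 and 0.32 at 4 weeks and -2.70, -2.48 and -1.72 at 12 weeks. Off TGFα/Myc it read -1.76, -1.86 and 0.93 at 4 weeks and -2.24, -2.33 and -1.83 at 12 weeks. In both of these 4-week groups the third array was the highest, and both 12-week groups overlapped the controls. Off TGFα, the 2 arrays used at 4 weeks read -2.62 and -2.24, and the 12-week livers read -2.68, 1.23 and -3.29, of which the last was not well above background. Over all 31 arrays the 11 tumors ran from 3.38 to 6.22 and the 20 livers from -3.29 to 1.23, and Asns was the sole member whose tumors and livers did not overlap. The range of the tumors is the same without the array labelled TGFα tumor 1.

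**Figure D1:**
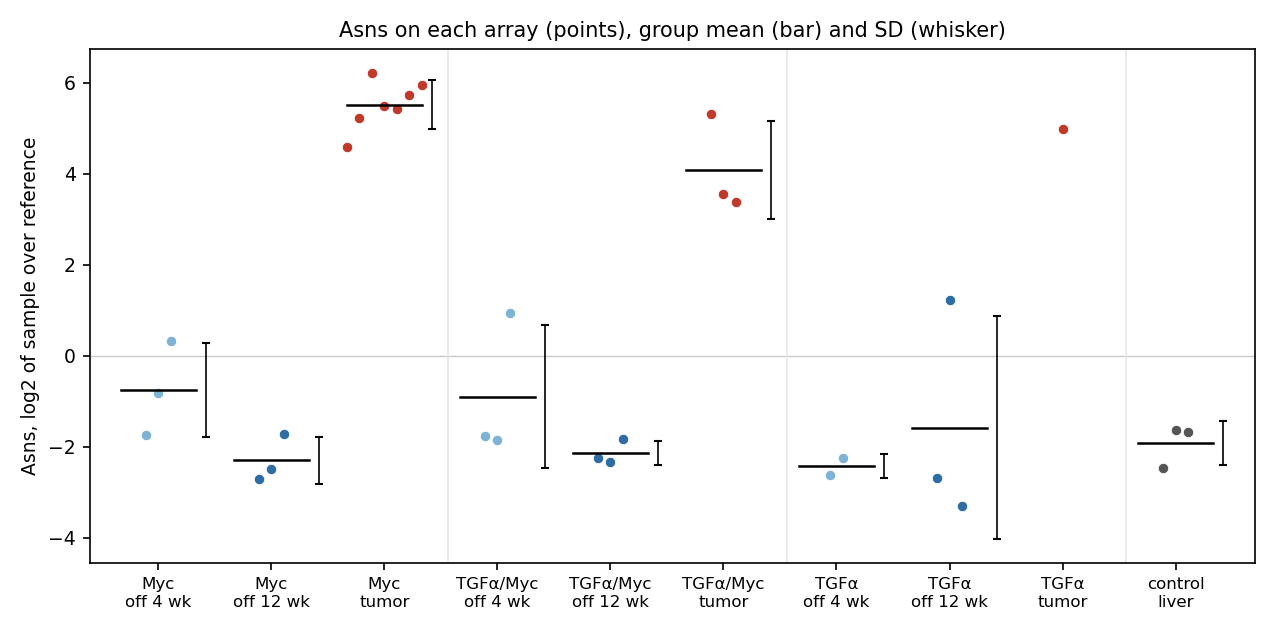
Asns on each of 31 arrays, as log2 of sample over reference (y axis), by group (x axis), with points for arrays, bars for group means and whiskers for SD (none for the single TGFα tumor). All 11 tumors lie between 3.38 and 6.22, above all 20 livers, which end at 1.23.

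The Myc tumors averaged 5.51 ± 0.53 (SD, n = 7) and the controls -1.92 ± 0.48 (SD, n = 3), a log2 difference of 7.43 (SE 0.70), or 173-fold. This was the largest positive difference among the 21979 genes in that comparison. The TGFα/Myc tumors averaged 4.08 ± 1.07 (SD, n = 3), 6.00 (SE 0.83) above the controls, or 64.0-fold, at rank 6 from the highest. Within scan day 1, Myc tumor 1 lay 6.20 above control 2, and within scan day 7, TGFα/Myc tumors 1 and 2 lay 6.90 above control 1. The difference was also large within single days. The TGFα/Myc tumors differed from the Myc tumors by -1.43 (SE 0.70), with overlapping values.

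Off c-Myc for 4 weeks, Asns differed from the Myc tumors by -6.26 (SE 0.70), 76.5-fold lower, and at 12 weeks by -7.81 (SE 0.70), 224-fold lower. Off TGFα/Myc it differed from its tumors by -4.98 (SE 0.83) at 4 weeks, 31.5-fold lower, and by -6.21 (SE 0.83) at 12 weeks, 74.3-fold lower. On slide 1, which held both groups, Myc off 4 weeks replicate 1 differed from Myc tumor 1 by -6.33. Against the controls, Asns differed by 1.17 at 4 weeks and -0.38 at 12 weeks off c-Myc, by -0.51 and 0.34 off TGFα, and by 1.02 and -0.21 off TGFα/Myc (SE 0.83, but 0.92 for TGFα at 4 weeks). All 6 off groups overlapped the controls. Between 4 and 12 weeks the difference was -1.55 (SE 0.83) off c-Myc and -1.24 (SE 0.83) off TGFα/Myc, with overlapping values in both. In neither genotype did the 4-week and 12-week livers share a scan day or slide.

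Atf4 itself, whose protein drives the response, had a small range. It read from -0.56 to 0.14 with a median of -0.42 in the 7 Myc tumors, and -1.30, -0.72 and 0.05 in the TGFα/Myc tumors, against -0.36, 0.27 and -0.04 in the controls. The groups overlapped, with differences of -0.21 (SE 0.25) and -0.61 (SE 0.29) from the controls. Its span over 31 arrays was 1.95, where that of Asns was 9.51. Off TGFα/Myc for 4 weeks Atf4 read 0.03, 0.03 and 0.66, which averaged 0.89 (SE 0.29) above the TGFα/Myc tumors with overlap at the third tumor (1.24 without that tumor and 0.57 without the first). These are mRNA values, and ATF4 protein was not measured.

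Atf5, a related factor also controlled at translation, averaged 0.19 ± 0.50 (SD, n = 7) in Myc tumors and 0.67 ± 0.65 (SD, n = 3) in TGFα/Myc tumors, against 0.91 ± 0.35 (SD, n = 3) in controls. Its differences were -0.72 (SE 0.33) and -0.25 (SE 0.39), with overlap in both. Ddit3, which encodes the factor CHOP of prolonged stress, ran from -0.92 to 0.88 with a median of -0.03 in Myc tumors and read -1.02, -0.16 and 1.62 in TGFα/Myc tumors, against -0.32, 0.30 and 0.39 in controls. The tumors lay on both sides of the controls, and the group means differed by -0.19 (SE 0.43) and 0.02 (SE 0.51, or -0.72 without TGFα/Myc tumor 3). None of the 3 transcription factor genes thus had tumors clear of the controls.

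Ddit4, which encodes the mTORC1 inhibitor REDD1, was high in the tumors. It read 1.43, 3.12, 3.07, 2.91, 3.25, 2.75 and 2.70 in the Myc tumors and 2.78, 2.17 and 2.44 in the TGFα/Myc tumors, against -0.13, 0.49 and 0.44 in the controls. All tumors lay above all controls, and Myc tumor 1 lay well below the other 6. The differences were 2.48 (SE 0.38), or 5.57-fold, and 2.20 (SE 0.45), or 4.58-fold.

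With the transgenes off for 4 weeks, Ddit4 lay lower off TGFα/Myc than off c-Myc or TGFα, with no overlap. At 12 weeks the genotypes overlapped, and these differences were not tested. Off TGFα/Myc it read -0.34, -1.06 and -0.11 at 4 weeks and 1.33, -0.33 and 0.93 at 12 weeks, all below the TGFα/Myc tumors, with differences of -2.97 (SE 0.45) and -1.82 (SE 0.45). Off c-Myc it read 1.05, 0.72 and 1.93, then 0.93, 1.75 and 0.89, which overlapped the Myc tumors only through tumor 1 and lay above every control at both times. Off TGFα it read 1.33 and 1.80, then 2.06, 2.00 and 1.02, also above every control, by 1.30 (SE 0.50) and 1.42 (SE 0.45). Within scan day 1, however, Myc tumor 1 lay only 0.93 above control 2, and the 3 Myc off 4 weeks livers differed from Myc tumor 1 by only -0.20, where the difference over all days was -1.52 (SE 0.38). With scan day as a block the Myc off 12 weeks livers lay 0.95 (SE 1.03) above the Myc tumors, the other direction from that over all days. Within day 7, TGFα/Myc tumors 1 and 2 lay 2.61 above control 1.

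Sesn2, a leucine sensor that also restrains mTORC1, was read at a probe pair that disagreed. At A_52_P154710 it read from -0.75 to 1.50 with a median of 0.05 in Myc tumors and 0.93, 1.45 and 1.04 in TGFα/Myc tumors, against 0.31, -0.19 and -0.04 in controls. There the TGFα/Myc tumors lay above all controls, by 1.11 (SE 0.44). At A_51_P161354 the same tumors read 0.56, 0.38 and 0.31, against 0.61, 0.38 and 0.75, a difference of -0.16. The Myc tumors differed from the controls by 0.10 and -0.57 at these probes, so no direction is given for Sesn2 against the controls, although the probes correlated at r = 0.69 over 31 arrays. Both probes read lower in TGFα/Myc off livers than in their tumors with no overlap, with differences of -1.79 and -0.57 at 4 weeks and of -1.06 and -0.24 at 12 weeks.

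Trib3 encodes a pseudokinase that binds ATF4 and dampens its activity. At A_51_P331570 it ran from -1.56 to 1.62 with a median of 0.20 in Myc tumors and read 0.02, 1.24 and 1.13 in TGFα/Myc tumors, against 0.00, -1.13 and -0.60 in controls. The Myc tumors spanned the controls, and the TGFα/Myc tumors lay just above them, by 1.37 (SE 0.59), though by only 0.27 and with overlap at A_52_P600274. Off TGFα/Myc, Trib3 was low at 4 weeks, at -2.18, -1.26 and -1.36, and high at 12 weeks, at 0.35, 1.50 and 0.81. The 12-week livers lay 2.49 (SE 0.59) above the 4-week livers with no overlap, and the second probe gave 1.50, also with no overlap. These 12-week and 4-week livers shared no scan day or slide, so time off cannot be told apart from scan day or slide here. The same difference off c-Myc was -0.55 (SE 0.59), and off TGFα it was 0.56 (SE 0.66) at the first probe and -0.38 at the second.

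Nupr1, a small chromatin protein induced by many stresses, read 0.30, 0.70, 2.05, 2.42, 3.07, 0.47 and 2.74 in the Myc tumors and 1.16, 1.37 and 1.87 in the TGFα/Myc tumors, against -0.30, -0.06 and -0.28 in the controls. All tumors of both kinds lay above all controls, and Myc tumors 1, 2 and 6 lay well below the other 4. The differences were 1.89 (SE 0.49), or 3.72-fold, and 1.68 (SE 0.58), or 3.21-fold. Within scan day 1 Myc tumor 1 lay 0.37 above control 2, and within day 7 the TGFα/Myc tumors 1 and 2 lay 1.56 above control 1.

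Off TGFα/Myc, Nupr1 read -0.10, -0.07 and -0.59 at 4 weeks and -0.30, -1.10 and -1.91 (not well above background) at 12 weeks, all below the tumors, with differences of -1.72 (SE 0.58) and -2.57 (SE 0.58). Off c-Myc it read 0.59, 0.66 and 0.93 at 4 weeks, among the lower Myc tumors and above every control, and -1.28, 0.07 and -0.15 at 12 weeks, below every Myc tumor. The difference from the Myc tumors was -0.95 (SE 0.49) at 4 weeks and -2.13 (SE 0.49) at 12 weeks. On scan day 1 the direction turned, with the Myc off 4 weeks livers 0.42 above Myc tumor 1, and with scan day as a block the 12-week difference was 0.00422 (SE 1.27).

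Chac1, whose enzyme breaks down glutathione, was very uneven in tumors. It ran from -2.87 to 0.67 with a median of -1.42 in Myc tumors and read -0.72, 0.19 and 1.87 in TGFα/Myc tumors, against -1.42, -1.58 and -1.56 in controls. The 3 controls lay close together, all TGFα/Myc tumors lay above them by 1.96 (SE 0.77) on average, and the Myc tumors lay on both sides (0.27, SE 0.65). Without TGFα/Myc tumor 3 the difference of the TGFα/Myc tumors was 1.25. Off c-Myc, Chac1 read 0.32, -0.27 and -0.22 at 4 weeks and -0.17, 0.06 and 0.25 at 12 weeks, above every control by 1.47 (SE 0.77) and 1.56 (SE 0.77). Off TGFα/Myc it read -1.25, -1.91 and -1.08 at 4 weeks, below all TGFα/Myc tumors, with a difference of -1.85 (SE 0.77), or -1.14 without tumor 3, and 0.74, -2.52 and -0.40 at 12 weeks, which overlapped them. In the Myc off 4 weeks livers, where Ddit4, Nupr1 and Chac1 all lay above every control, the mean log2 ratio of stellate and fibroblast markers (7 of 7 measured) ran from 0.36 to 1.29, against -0.39 to -0.12 in controls. That of biliary markers (6 of 6) ran from 0.66 to 1.10, against 0.08 to 0.41, and that of neutrophil markers from 1.11 to 2.18, against 0.63 to 0.81. Their part in these values was not tested.

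Fgf21, the hepatic hormone of fasting and of amino acid restriction, read higher in TGFα/Myc than in Myc tumors. It ran from -0.57 to 2.03 with a median of 1.12 in Myc tumors and read 2.51, 4.46 and 4.76 in TGFα/Myc tumors, against 1.95, 1.34 and 1.88 in controls. The TGFα/Myc tumors lay above every control and every Myc tumor, by 2.19 (SE 0.71) and 3.07 (SE 0.60), while the Myc tumors lay on both sides of the controls (-0.88, SE 0.60). Scanner 2 read Myc tumors 2 to 7 and no TGFα/Myc tumor, and the difference between tumor types was not read with scanner or scan day as a block. The probe printed above gave 2.30, 2.83 and -0.54 for the same 3 differences, with overlap between TGFα/Myc tumors and controls, and correlated with the first at r = 0.88 over 31 arrays. Within scan day 7 the TGFα/Myc tumors 1 and 2 lay 1.54 above control 1. Off TGFα/Myc it read -0.76, 0.03 and 2.15 at 4 weeks and 0.84, -0.75 and 0.28 at 12 weeks, all below the tumors, with differences of -3.44 (SE 0.71) and -3.79 (SE 0.71). At the printed probe these differences were -2.73, with overlap, and -2.68, without. The array labelled TGFα tumor 1 read 1.27 for Fgf21, 2.33 for Ddit4 and 0.12 for Nupr1.

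**Figure D2:**
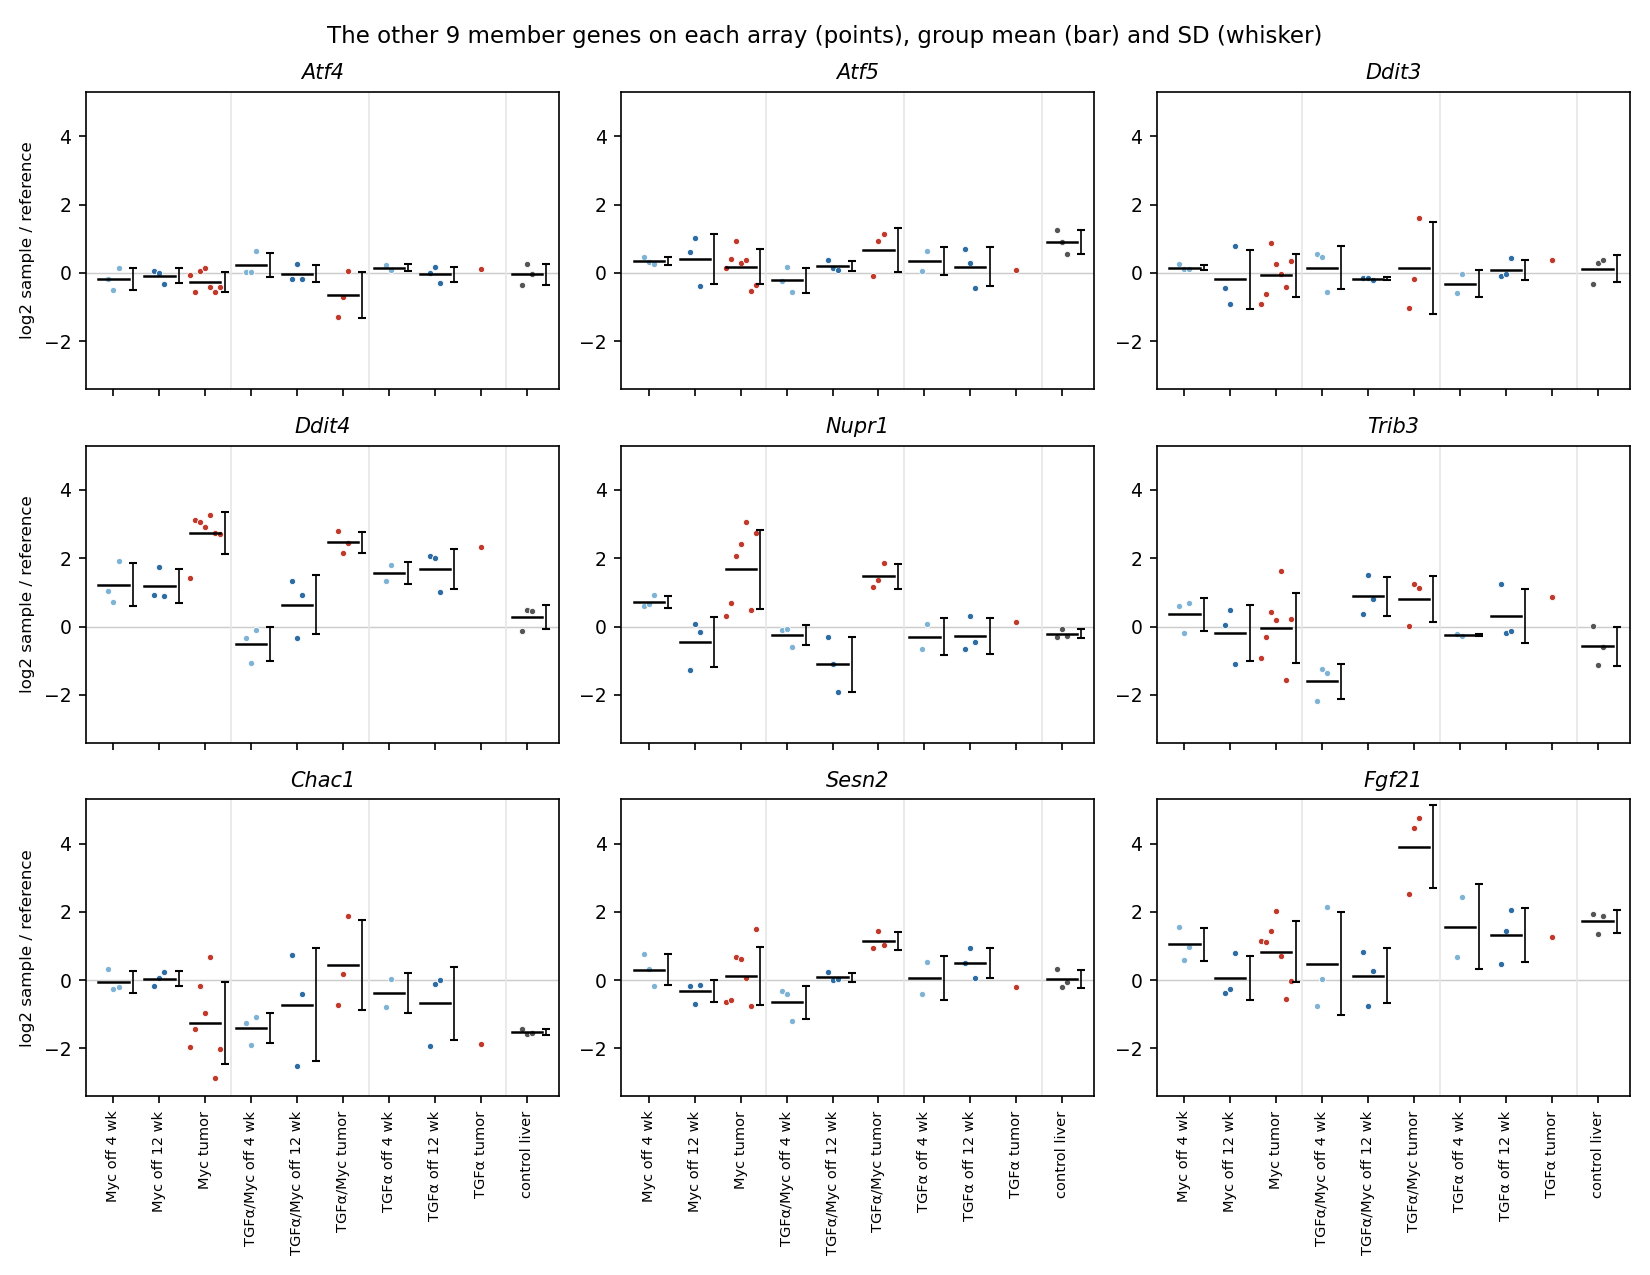
The other 9 genes at their probe of highest mean signal, as log2 of sample over reference on each of 31 arrays, by group, with bars for group means and whiskers for SD. Ddit4 and Nupr1 lie above the controls in all Myc and TGFα/Myc tumors, Fgf21 is highest in the TGFα/Myc tumors, and Atf4 keeps within a span of 1.95.

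Of the 10 genes, 3 (Asns, Ddit4 and Nupr1) were called in Myc tumors against controls at a limma adjusted p under 0.05, all higher, where 17.8% of all genes were called higher and 17% lower. The same 3 were the ones without overlap, beside 12.8% of all genes higher without overlap. In TGFα/Myc tumors against controls, 2 (Asns and Ddit4) were called, both higher, beside 3.74% of all genes, and 7 lay above the controls without overlap, beside 9.83%. All counts and medians here read each gene at its probe of highest mean signal. Trib3, Sesn2 and Fgf21 are among the 7, but each overlapped the controls at its other probe, where Sesn2 differed by -0.16. The rule used these contrasts, so the counts are descriptions. The median difference of the 10 genes was 0.19 in Myc tumors and 1.53 in TGFα/Myc tumors, beside -0.04 for all genes in each. Array by array, 3 to 7 of the 10 genes lay above the highest control in the Myc tumors, beside 32.4% to 37% of all genes, and 7 to 8 in the TGFα/Myc tumors, beside 28.3% to 32.6%. Below the lowest control lay 0 to 7 of the 10 in the Myc tumors, beside 33.3% to 42.5% of all genes. In the TGFα/Myc tumors 0 to 3 lay below it, beside 33.3% to 38.3%. Myc tumors 1, 2 and 6 had more of the 10 below than above.

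In the other contrasts the counts of the 10 genes are descriptions too, since values of these arrays chose the genes. Against the Myc tumors, 2 genes (Asns and Ddit4) were called lower off c-Myc at 4 weeks, beside 16.6% of all genes. At 12 weeks 3 (with Nupr1) were called lower, beside 17.4%. With scan day as a block, Ddit4 and Nupr1 turned direction at 12 weeks, as given above, and on the tumor side that contrast then rests on Myc tumor 1 alone. Against the TGFα/Myc tumors, 6 (Asns, Trib3, Ddit4, Sesn2, Fgf21 and Nupr1) were called lower at 4 weeks, beside 9.5% of all genes, and Atf4 was called higher, beside 8.91%. At 12 weeks 4 (Asns, Ddit4, Fgf21 and Nupr1) were called lower, beside 7.72%. Sesn2 and Fgf21 were called higher in TGFα/Myc than in Myc tumors, beside 12.5% of all genes (13.9% were lower). Scanner and tumor type were nearly the same split, and the members were not read with a block in that contrast. Trib3 was called higher at 12 than at 4 weeks off TGFα/Myc, beside 0.596% of all genes, where time off cannot be told apart from scan day or slide. Against the controls limma called 0 of the 10 genes in any of the 6 off groups, where the shares of all genes called in either direction were 0.0228% and 0.0091% off c-Myc at 4 and 12 weeks, 0.387% and 0.127% off TGFα, and 2.24% and 0.1% off TGFα/Myc, and 1 or 2 genes per comparison had an unadjusted p under 0.05.

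**Figure D3:**
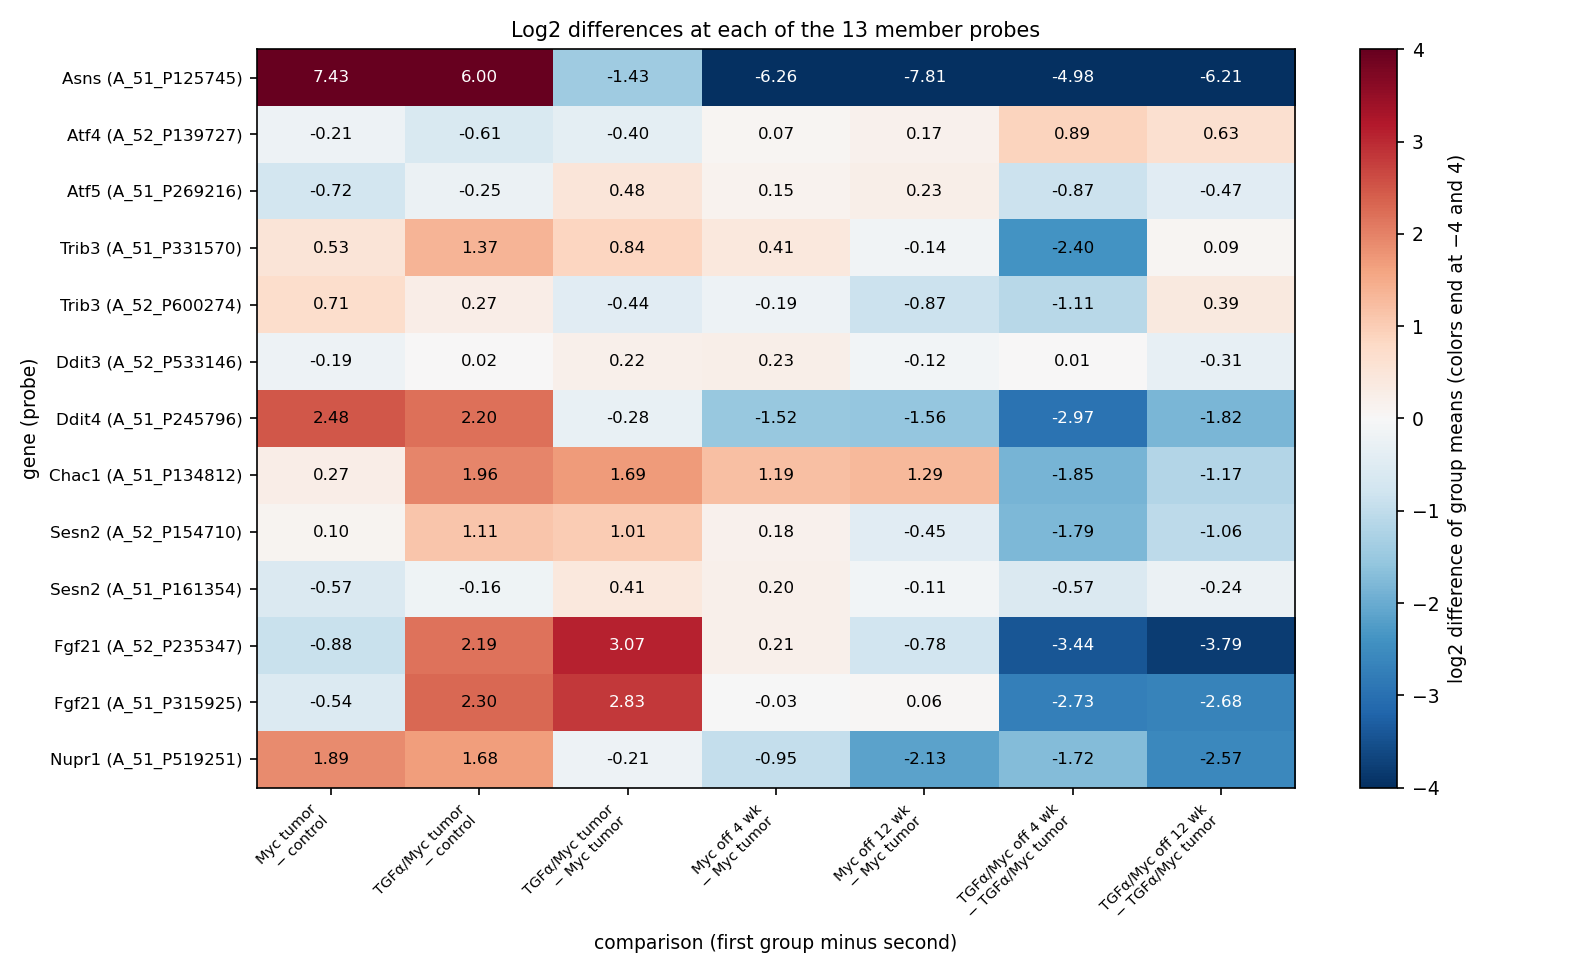
Log2 differences (first group minus second) at all 13 probes (rows) in 7 comparisons (columns), with the value in each cell and colors that end at -4 and 4. Asns runs from 7.43 to -7.81, and the Sesn2 probes differ in sign for both tumor types against controls.

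Over the 31 arrays, which share the reference and a few large groups, Nupr1 (r = 0.76) and Ddit4 (r = 0.75) correlated most with Asns among the members, Atf4 stood at r = -0.35, and the other probes lay between -0.11 and 0.31. Within the 7 Myc tumors alone the coefficients with Asns were 0.51 for Nupr1, 0.65 for Ddit4 and -0.00 for Atf4. There Ddit3 had the highest (0.86), the Sesn2 probes gave 0.64 and 0.60, and the Fgf21 probes were lowest (-0.23 and -0.49). Among the 10 genes of all those tested with values most like Asns were Bhlha15 (r = 0.979), Pask (0.960), Psat1 (0.951), Plekha1, Cenpt, LOC279067, D17H6S56E-5, Krtap4-6 and Rab34 (0.937). Psat1 was the sole one of the 10 from the ATF4 lists below.

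**Figure D4:**
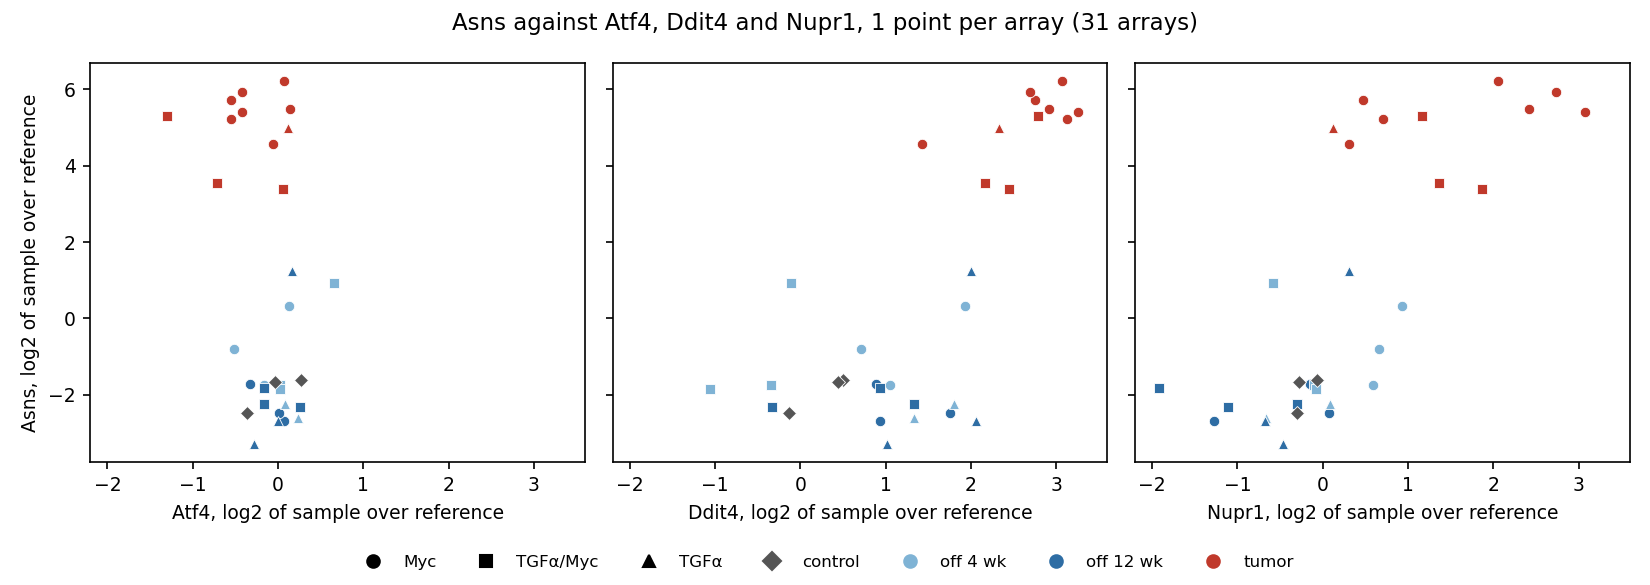
Asns (y axis) against Atf4, Ddit4 and Nupr1 (x axes), all as log2 of sample over reference, 1 point per array over 31 arrays, with colors for tumor, off and control samples and shapes for genotype. The tumors stand at 3.38 or higher in Asns, at Atf4 values between -1.30 and 0.14.

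The rest of the ATF4 pathway was read from 45 further genes in 4 lists, none of them a member. The lists here and below were also chosen with earlier results of these arrays known. Their counts and p-values are therefore not an independent test. In Myc tumors against controls, 22 of these 45 genes rose and 3 fell at a limma adjusted p under 0.05, beside 17.8% and 17% of all genes, and in TGFα/Myc tumors 17 rose and 0 fell, beside 3.74% and 3.39% (20 of 45 at an unadjusted p under 0.05). The median difference of the 45 genes was 0.65 and 0.69, beside -0.04 for all genes. The count in Myc tumors was 13 with scanner, 4 with scan day and 0 with slide as a fixed block (11 higher at an unadjusted limma p under 0.05), and under each of these blocks the contrast rests, on the tumor side, on Myc tumor 1 alone. With scan day as a block it was 8 in TGFα/Myc tumors, and 8 without TGFα/Myc tumor 1 and 10 without control 2 or control 3.

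Amino acid synthesis enzymes moved most. Of 11 genes 7 rose and 0 fell in each tumor type. Psat1, the aminotransferase of serine synthesis, averaged 6.69 in Myc tumors and 5.29 in TGFα/Myc tumors, against -0.08 in controls, and rose by 6.77 (SE 0.49, limma adjusted p = 5.48e-09) and 5.37 (SE 0.58, adjusted p = 1.05e-05). Phgdh, the first enzyme of that route, rose by 4.57 (adjusted p = 4.98e-07) and 4.67 (adjusted p = 3.49e-05), and its last enzyme gene Psph by 2.34 (adjusted p = 9.1e-06) and 2.71 (adjusted p = 0.000152). Pycr1 of proline synthesis rose by 3.81 in Myc tumors (adjusted p = 4.09e-06) and by 2.36 in TGFα/Myc tumors (adjusted p = 0.0141), and the mitochondrial Pck2 by 2.76 in TGFα/Myc tumors (adjusted p = 1.08e-05). The 3 serine synthesis genes were thus called higher in both tumor types.

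Among 9 amino acid transporters, 4 rose and 1 fell in Myc tumors and 2 rose in TGFα/Myc tumors. The cationic amino acid carriers Slc7a3 and Slc7a1 rose by 4.66 (limma adjusted p = 1.87e-05) and 4.45 (adjusted p = 4.42e-05) in Myc tumors and by 2.78 (adjusted p = 0.0364) and 3.52 (adjusted p = 0.012) in TGFα/Myc tumors. The glutamine carrier Slc1a5 rose by 3.19 in Myc tumors (adjusted p = 0.000267), and the glycine carrier Slc6a9 fell by 2.05 (adjusted p = 0.000637).

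Of 13 tRNA charging and export genes, 6 rose and 1 fell in Myc tumors and 5 rose in TGFα/Myc tumors. The glycyl-tRNA synthetase gene Gars rose by 1.73 in Myc tumors (limma adjusted p = 1.65e-05), Iars by 1.45, Lars by 0.99 and Yars by 1.23, while Aars, named after its value was seen, fell by 1.28 (adjusted p = 0.00522). In TGFα/Myc tumors Sars rose by 1.20 (adjusted p = 0.00277), Lars by 1.08, Cars by 1.16 and Iars by 1.26. These rises were small beside those of the synthesis enzymes.

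Of 12 partners and other targets, 5 rose and 1 fell in Myc tumors and 3 rose in TGFα/Myc tumors. Atf3, a stress-induced factor, rose by 2.46 (limma adjusted p = 0.000589) and 1.98 (adjusted p = 0.0443), the stress cytokine Gdf15 by 1.25 (adjusted p = 0.00109) and 1.50 (adjusted p = 0.0061), and the translation repressor gene Eif4ebp1 by 0.73 (adjusted p = 0.00683) and 0.98 (adjusted p = 0.0147). Vegfa, an angiogenic factor, fell by 1.80 in Myc tumors (adjusted p = 2.96e-05).

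**Figure D5:**
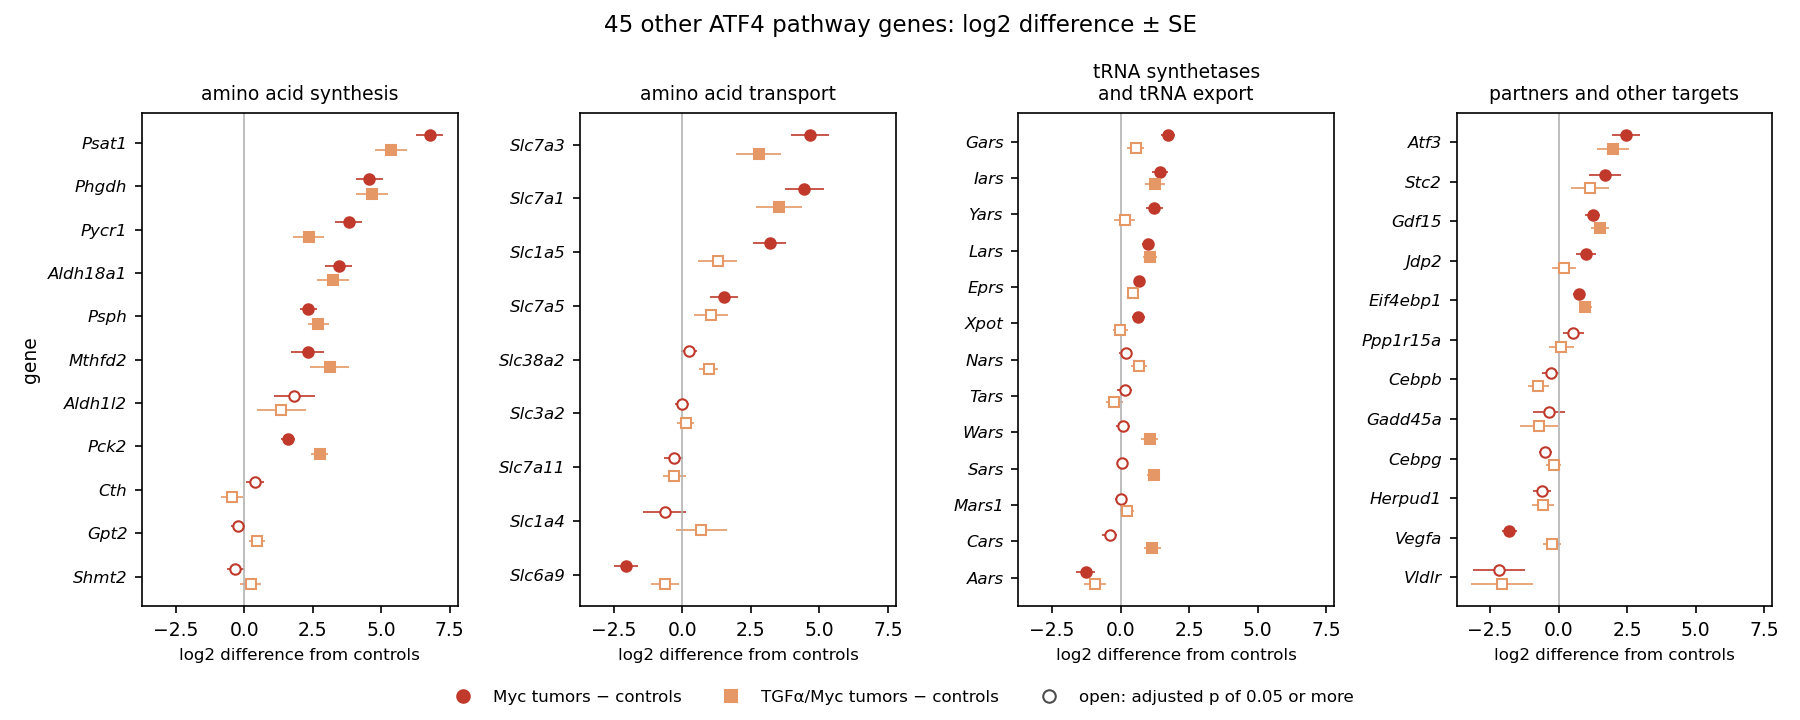
Log2 difference from controls (x axis) with its SE for 45 other ATF4 pathway genes in 4 panels, Myc tumors as circles and TGFα/Myc tumors as squares, filled where the limma adjusted p is under 0.05. Psat1 lies farthest right in both tumor types (6.77 and 5.37), followed by Slc7a3 in Myc tumors (4.66) and by Phgdh in TGFα/Myc tumors (4.67).

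The called genes of the upstream kinase module and of the other arms of the unfolded protein response differed in direction in Myc tumors. There 17.8% of all genes were called higher and 17% lower, and in TGFα/Myc tumors 3.74% and 3.39%. Neither list was read with scan day, slide or scanner as a block. Of 8 eIF2 module genes 4 rose in Myc tumors: the eIF2α gene Eif2s1 by 1.46 (limma adjusted p = 0.000496), the amino acid sensing kinase gene Eif2ak4 (GCN2) by 1.16 (adjusted p = 0.00525), Nck1 by 0.81 and the endoplasmic reticulum kinase gene Eif2ak3 (PERK) by 0.86 (adjusted p = 0.0232). Of the 8, limma called 0 in TGFα/Myc tumors (1 at an unadjusted p under 0.05). Of 14 genes of the other arms, 6 fell and 0 rose in Myc tumors, among them Sel1l at -1.23 (adjusted p = 4.94e-05), Dnajc3 at -1.86 (adjusted p = 8.25e-05), Hsp90b1 at -0.71 and Hyou1 at -1.44, and limma called 0 in TGFα/Myc tumors (1 at an unadjusted p under 0.05). The 6 called genes of that list thus lay opposite in direction to Asns in Myc tumors. A lower median was not particular to Myc tumors, where it was -0.49. In the 6 off groups against controls, the median difference of the 14 genes ran from -0.55 to -0.28. In each off group 4 to 7 of the 14 had an unadjusted limma p under 0.05, and 0 or 1 was called lower.

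Fgf21 is also a target of the fasting receptor PPARα, and Ddit4 of the glucocorticoid receptor. Of those responses 12 and 8 genes were therefore read beside them. Over all genes, limma called 17.8% higher and 17% lower in Myc tumors, and 3.74% and 3.39% in TGFα/Myc tumors. These 2 lists were not read with scan day, slide or scanner as a block either. Of the 12 genes of the PPARα list, 4 fell in Myc tumors, among them the receptor gene Ppara itself, with a mean log2 ratio of -1.84 in Myc tumors and 0.17 in controls (limma adjusted p = 1.51e-05), and Cyp4a10, a fatty acid hydroxylase gene, with a difference of -3.37 (adjusted p = 0.00447), and 2 fell in TGFα/Myc tumors. In TGFα/Myc tumors Ppara differed by -0.68 (adjusted p = 0.236) and Cyp4a10 by -1.21 (adjusted p = 0.539), neither of which passed. Of 7 glucocorticoid genes measured, Per1 rose by 1.97 (limma adjusted p = 4.06e-06) in Myc tumors. There Tat fell by 2.32, Klf9 by 0.97 and Tsc22d3 by 1.26. In TGFα/Myc tumors Per1 rose by 2.30 (adjusted p = 5.93e-05) and Fkbp5 by 3.16 (adjusted p = 0.0107). In the 6 off groups against controls, the median difference of the 7 genes ran from 0.91 to 1.78. In each, 1 or 2 were called higher and 0 lower, beside 0.0091% to 2.24% of all genes in either direction. Their part in the Ddit4 values was not tested.

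With the transgenes off, more of the 45 genes were called lower than higher against the tumors. Against the Myc tumors, 17 of 45 genes fell and 7 rose at 4 weeks, beside 16.6% and 15.6% of all genes, and 20 fell and 6 rose at 12 weeks, beside 17.4% and 17.3%. Against the TGFα/Myc tumors 17 fell and 2 rose at 4 weeks, beside 9.5% and 8.91%, and 15 fell and 2 rose at 12 weeks, beside 7.72% and 8.1%. Of the 11 synthesis enzymes, 7 fell at each time off c-Myc, and 8 and 7 off TGFα/Myc. The lists were not alike, for of the 12 partners and other targets 3 rose and 0 fell off c-Myc at 4 weeks (6 at an unadjusted limma p under 0.05), with a median of 0.05, and the 9 transporters had a median of 0.12 at 12 weeks. Psat1 differed by -6.86 and -7.29 off c-Myc at 4 and 12 weeks (limma adjusted p = 5.44e-09 and 1.11e-09) and by -5.20 and -4.78 off TGFα/Myc (adjusted p = 8.73e-06 and 2.22e-05). Phgdh differed by -3.99 and -5.24 off c-Myc and by -5.92 and -5.52 off TGFα/Myc (adjusted p from 7.97e-08 to 3.8e-06). The Myc off 12 weeks livers share no scan day with the Myc tumors, and with scan day as a block the 12-week count of lower genes off c-Myc was 0 (7 at an unadjusted limma p under 0.05). At 4 weeks it was 9 with scan day or scanner and 1 with slide as a block. Off TGFα/Myc at 12 weeks it was 4 with scan day and 0 with slide (13 at an unadjusted limma p under 0.05).

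Against the controls, limma called 2 of 45 genes over the 6 off comparisons: Slc38a2, a neutral amino acid carrier gene, rose by 2.36 off TGFα for 4 weeks (adjusted p = 0.00277), and Sars fell by 0.97 off TGFα/Myc for 4 weeks (adjusted p = 0.0325). At an unadjusted p under 0.05 the counts per comparison were 2 to 8 of 45. The total of 2 was 1 without control 2, control 3, TGFα off 4 weeks replicate 2 or 3, or TGFα/Myc off 4 weeks replicate 1 or 2. It was 4 to 6 without control 1, Myc tumor 5, TGFα/Myc tumor 2 or 3, TGFα/Myc off 4 weeks replicate 3, TGFα/Myc off 12 weeks replicate 2, Myc off 12 weeks replicate 3 or TGFα off 12 weeks replicate 3. Between 12 and 4 weeks a single gene, Aldh1l2 of mitochondrial folate metabolism, was called, higher by 4.51 off TGFα, where 0.519% of all genes were called higher (limma adjusted p = 0.028, with 2 arrays at 4 weeks), a count that was 0 without any 1 of the 5 TGFα off arrays used and 2 without TGFα/Myc off 4 weeks replicate 3. The TGFα off livers of the 2 times shared no scan day or slide, so time off cannot be told apart from these.

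Between the tumor types, the share of pathway genes called was near that of all genes. Of 45 genes 7 were higher and 7 lower in TGFα/Myc than in Myc tumors, beside 12.5% and 13.9% of all genes, a total of 14 that was 7 without TGFα/Myc tumor 2 and 8 without TGFα/Myc tumor 3. Cars and Sars were higher in TGFα/Myc tumors by 1.56 (limma adjusted p = 0.000171) and 1.15 (adjusted p = 0.00021), and Vegfa by 1.56 (adjusted p = 0.000276), while the difference for Gars was -1.19 (adjusted p = 0.00138). All but 1 of the Myc tumors were read on the second scanner and no TGFα/Myc tumor was, and with scanner as a block 3 genes were called. With scan day as a block limma called 0 (4 higher and 1 lower at an unadjusted p under 0.05).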

How the data were processed

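RNA of liver tumors, livers off the transgene and control livers was measured on 34 Agilent arrays with 2 colors, the sample in Cy3 and the pooled liver reference in Cy5, per the labels. The deposited log10 ratios are of red over green processed intensities, which Agilent Feature Extraction had background-subtracted and dye-normalized, per the file headers, under protocols that differ between arrays. The deposited log2 values of the series matrix served as an alternative; the submitters' processing notes name limma, and the steps behind those values are not given in the sources used here. Minus the log10 ratio times 3.321928 gave log2 of sample over reference.

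The genes and lists were chosen with earlier results of these data known. Outlier spots were left out, and a probe was kept if its Cy3 signal stood well above background on 3 or more of 31 arrays (31563 of 41174). Of a gene's kept probes the one with the highest mean Cy3 signal was used, and 24844 probes were named through RefSeq. One linear model with a coefficient per group was fitted over 31 arrays (limma 3.58.1, R 4.3.3, version 1.17.8 of data.table), with moderated tests in 16 comparisons and Benjamini-Hochberg adjustment over all genes at 0.05. From each list up to 4 called genes of smallest p were named, and a few genes this rule or the likeness to Asns would name are not reported here. The scripts were tested on simulated data. Alternatives covered the background correction, scaling, filters, arrays used, replicate numbers, slide (statmod 1.5.0), scan day and scanner. The main fit did not pair arrays by replicate number.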

Additional observations from a re-analysis of the deposited data

Results flagged for a closer look

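Ddit4 in Myc tumor 1 read 1.43, far below the other 6 Myc tumors, and its gap to the nearest was 0.695 of the group's range. Of 13 probes tested for such an array, chance alone marks about 1 in 20.

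Between TGFα/Myc and Myc tumors (10 arrays in all), 14 genes of the ATF4 lists differed in limma's test of that difference. Of the 45 genes 7 were higher and 7 lower, beside 12.5% and 13.9% of all genes, so the count was near the share of all genes. Among tRNA genes, Cars was higher in TGFα/Myc tumors by 1.56 (adjusted p = 0.000171), Sars by 1.15 (adjusted p = 0.00021) and Wars by 0.97 (adjusted p = 0.00835). On the same log2 scale the differences were -1.19 for Gars (adjusted p = 0.00138), -1.08 for Yars (adjusted p = 0.0135) and -0.66 for Xpot (adjusted p = 0.0447). Among enzymes, Pck2 differed by 1.17 (adjusted p = 0.002) and Gpt2 by 0.71 (adjusted p = 0.036), against -1.40 for Psat1 (adjusted p = 0.0379) and -1.46 for Pycr1 (adjusted p = 0.029). Among transporters, Slc6a9 differed by 1.42 (adjusted p = 0.0161), Slc1a5 by -1.90 (adjusted p = 0.0218) and Slc7a3 by -1.87 (adjusted p = 0.045). Vegfa differed by 1.56 (adjusted p = 0.000276). Synthetase genes thus stood on both sides. Scanner and tumor type were nearly the same split, and the part of the scanner was not tested beyond the block given for the whole list. With scan day as a block limma called 0 of the 45 (4 higher and 1 lower at an unadjusted p under 0.05).

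On the 3 arrays of slide 5 that were left out, the sample channel alone had signal for 3 members, although it too was unlike liver. Its intestine markers stood at a median signal percentile of 98.9 to 99.8 and its hepatocyte markers at 67.3 to 88.7, against 99.7 or more for hepatocyte markers in controls, so these values are not given as levels of TGFα liver tumors or livers. The lowest Cy3 signal percentile on them was 92.4 for Asns, where the highest control stood at 61.6. For Ddit4 it was 96.5, where the highest control stood at 92.0, and for Nupr1 97.2, where the highest control stood at 68.7. Their log2 ratios for Asns, -1.11 and -1.27 in TGFα tumors 2 and 3 and -0.45 in TGFα off 4 weeks replicate 1, are against a reference channel of another profile.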

How the results depend on the processing

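The Asns difference kept its direction in all 6 comparisons of tumors with controls or off livers under every alternative that could be fitted. Counts below are of the 45 ATF4 pathway genes called by limma in the direction given in the report (22 and 17 in Myc and TGFα/Myc tumors, 17 and 20 lower off c-Myc at 4 and 12 weeks, 17 and 15 lower off TGFα/Myc, a total of 2 in the off livers against controls, 14 between tumor types and 1 between 12 and 4 weeks). With normexp and loess, the count was 9 in TGFα/Myc tumors, 11 and 9 off TGFα/Myc and 5 in off livers against controls, and Asns differed by 4.49 in TGFα/Myc tumors, -6.23 off c-Myc at 12 weeks, and -3.78 and -4.03 off TGFα/Myc. With the sample channel alone Asns differed by 8.53, -7.61 and -9.13 in the c-Myc comparisons, and Xpot turned to -0.16 in Myc tumors and 0.0938 off c-Myc at 12 weeks, and Aars to -0.17 at 4 weeks. With the series matrix values the count was 11 in TGFα/Myc tumors, 6 in off livers and 0 between times, and off TGFα/Myc at 4 weeks Stc2 turned to 0.54, Slc7a3 to 0.17 and Pycr1 to 0.86. The total in off livers was 5 without the filter, 5 with the stricter filter on dim probes, 1 with all 34 arrays, 1 with slide as a random block and 4 with a sex score, and the count between times was 0 in the last 4 of these settings. Fitting only the groups compared gave 5 in TGFα/Myc tumors, 5 and 7 off TGFα/Myc, 5 between tumor types and 0 between times. Without Myc tumor 5 and TGFα/Myc tumor 3 together, the lowest of their groups at a Myc probe, 5 were called in off livers and 9 between tumor types.

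With scan day as a block the counts were 4 and 8 in Myc and TGFα/Myc tumors, 9 and 0 off c-Myc, 4 off TGFα/Myc at 12 weeks and 0 between tumor types (in that fit limma gave 7 lower off c-Myc at 12 weeks, and 4 higher and 1 lower between tumor types, at an unadjusted p under 0.05). Asns then differed by 6.20 in Myc tumors and -6.21 off c-Myc at 12 weeks, where Ddit4 turned to 0.95, Nupr1 to 0.00422 and Atf3 to 0.65. Slide and scanner as fixed blocks were added after seeing the data. Slide gave 0 in Myc tumors, 1 off c-Myc at 4 weeks and 0 off TGFα/Myc at 12 weeks (11 higher in Myc tumors and 13 lower off TGFα/Myc at an unadjusted p under 0.05), with Jdp2 at -0.12 in Myc tumors. Scanner gave 13 in Myc tumors, 9 and 12 off c-Myc and 3 between tumor types. The cause of these shifts was not tested. Scan day could not be fitted for TGFα/Myc off 4 weeks, nor slide for TGFα/Myc tumors against controls, Myc off 12 weeks, TGFα/Myc off 4 weeks or the tumor types. With any of these 3 blocks the Myc tumors enter a difference only through tumor 1. Of the other members' differences, 18 of 45 moved beyond the replicate spread with scan day besides the 2 that turned, 15 of 27 with slide, 15 of 54 with scanner, 10 of 54 with the sample channel alone, 5 of 54 with normexp and loess and 6 of 54 without TGFα/Myc tumor 3 (Atf4 and Ddit3).

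Leaving out 1 array at a time gave 17 to 23 and 8 to 18 genes in Myc and TGFα/Myc tumors, 16 to 19 and 17 to 22 off c-Myc, 12 to 18 and 11 to 16 off TGFα/Myc, 1 to 6 in off livers, 7 to 15 between tumor types and 0 to 2 between times. Asns then differed by 7.16 to 7.59 and 5.39 to 6.35 in the tumors, by -6.79 to -5.76 and -8.10 to -7.61 off c-Myc, and by -5.89 to -4.36 and -6.57 to -5.60 off TGFα/Myc. The replicate block gave 20, 16, 17, 17, 16 and 17 genes in the first 6 comparisons, 3 in off livers, 10 between tumor types and 1 between times, and Asns at 7.26, 6.00, -6.08, -7.63, -4.98 and -6.21. Same-numbered arrays correlated from -0.19 to 0.25, with 3 pairs per comparison, too few to show or exclude a pairing. Their mean was 0.16 for TGFα/Myc off 4 weeks against the tumors, where arrays of other numbers gave -0.08. In the other comparisons the mean of same-numbered arrays ran from -0.04 to 0.05. The number of arrays limits every comparison of 3 with 3.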
